A study of Mus musculus with 12 samples.

Results

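The transforming growth factor beta (TGF-beta) system was followed at the RNA level in chondrocytes of the developing forelimb zeugopod, the limb segment of the radius and ulna, in wild type (WT) mice and in mutants with frameshifts in *Hoxa9*, *Hoxa10*, *Hoxa11*, *Hoxd9*, *Hoxd10* and *Hoxd11* (*aadd*). The genes were taken by symbol and comprised the ligands *Tgfb1*, *Tgfb2* and *Tgfb3*, the receptors *Tgfbr1*, *Tgfbr2* and *Tgfbr3*, and the latent TGF-beta binding proteins *Ltbp1*, *Ltbp2*, *Ltbp3* and *Ltbp4*. All 10 were found among the 36186 rows of the expression table, and all 10 were among the 10936 genes that reached 5 NRPKM in 3 or more libraries. NRPKM is reads per kilobase of transcript scaled to library size, normalized further between libraries by the authors, so levels of different genes are given per length. *Tgfb1* met that filter only through WT proliferative and hypertrophic libraries, and *Ltbp2* only through WT resting and *aadd* libraries, the groups where each is high, so their calls are given as a description.

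RNA-Seq was carried out on 12 libraries of E15.5 forelimb zeugopod from a mixed 129/CD-1 background, 3 in each of 4 groups, with chondrocytes captured by laser capture microdissection (LCM). The WT groups were the resting, proliferative and hypertrophic compartments, of which the sample labels call the last hyperproliferative. In the *aadd* group each of the 6 Hox genes carried a homozygous frameshift, made by a LoxP insertion with a small deletion in its first exon, and the undifferentiated chondrocytes of the whole element were taken as 1 population, labelled resting. Some perichondrium was captured with the chondrocytes in every group. The study describes the replicates as independent sets of compartments, and whether a set came from 1 embryo or several is not given in the sources used here, so P values measure the spread between these sets. A frameshift leaves the transcript in place, and these genes were read in *aadd* at means of 8.76 (*Hoxa11*) to 46.3 NRPKM (*Hoxd10*) against 21.6 and 15.9 in WT resting, so their levels do not check the genotype labels.

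The depth read from the values themselves was about 1890000 to 3240000 reads per library. This figure still holds the authors' further scaling between libraries, which is not given in the sources used here. Chondrocyte markers summed to 2293 to 4731 NRPKM in 10 of the 12 libraries and to 654 and 932 NRPKM in WT hypertrophic replicates 2 and 3. In those same replicates, endothelial markers summed to 304 and 212, macrophage markers to 285 and 230 and osteoclast markers to 1351 and 995 NRPKM. WT hypertrophic replicate 1 had 21.7, 23.8 and 51.5 NRPKM for these lists, and the WT resting and proliferative libraries had 5.0 to 14.2, 14.2 to 27.7 and 16.8 to 36.7. The defining hypertrophic genes were split: *Col10a1*, the hypertrophic cartilage collagen, was at 264, 166 and 221 NRPKM in WT hypertrophic replicates 1, 2 and 3, while *Mmp13*, the collagenase of terminal cartilage and osteoblasts, was at 3.05, 735 and 661. Replicate 2 of *aadd* had the highest endothelial (37.3), macrophage (44.3) and perichondrial (1131 NRPKM) sums of its group. In such bulk samples, fewer cells of a type and less RNA per cell cannot be told apart.

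**Figure D1:**
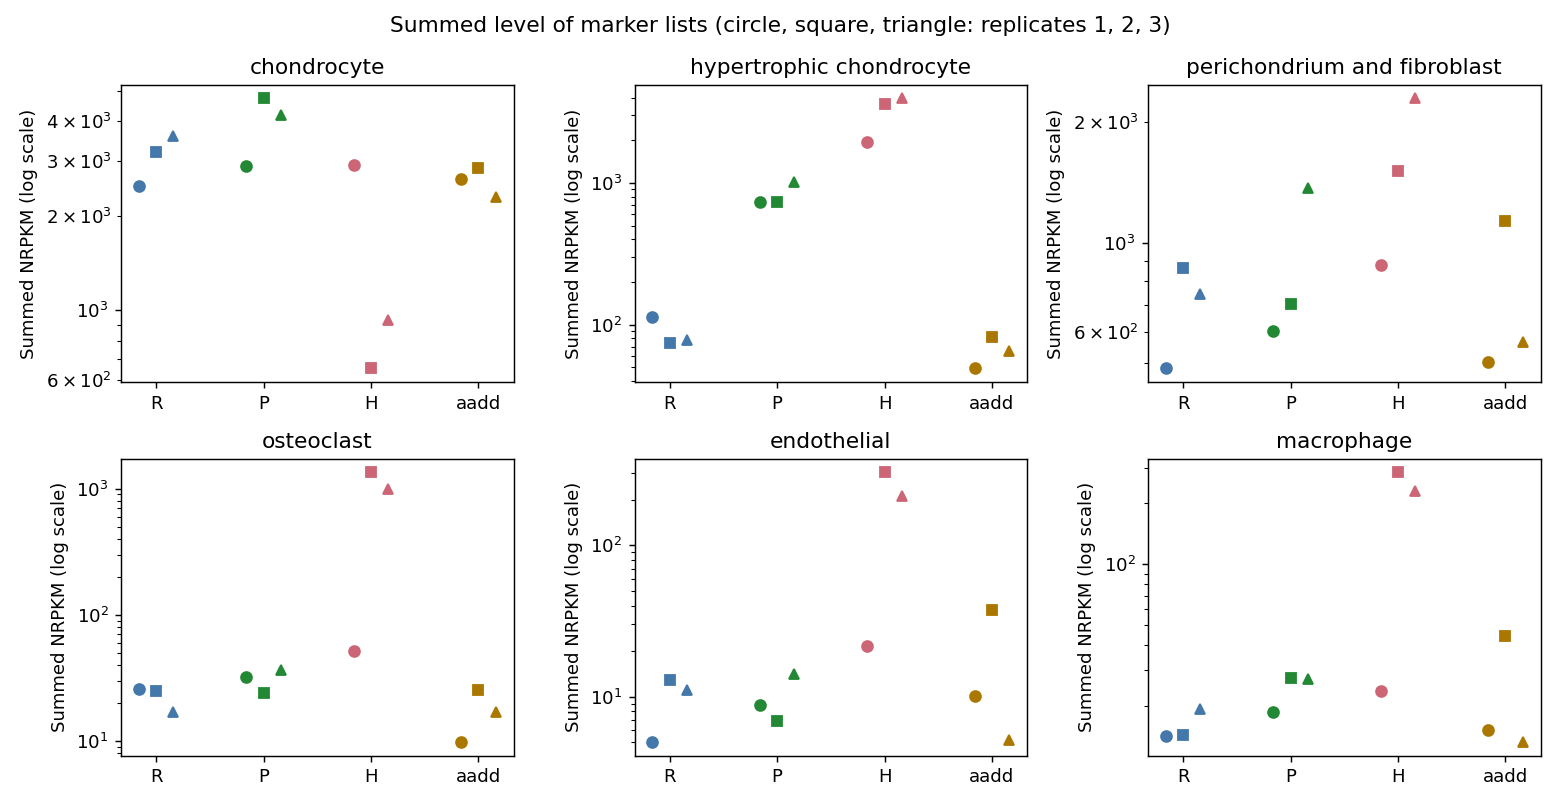
Summed NRPKM of 6 marker lists (log scale) in each of the 12 libraries, with R, P and H for the WT resting, proliferative and hypertrophic compartments. WT hypertrophic replicates 2 and 3 (square and triangle) lie below every other library for chondrocyte markers (654 and 932 NRPKM) and above every other library for osteoclast, endothelial and macrophage markers.

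TGF-beta ligands are secreted as inactive complexes in which the cleaved propeptide, the latency-associated peptide, still wraps the ligand. The propeptide is usually tied by disulfide bonds to a latent TGF-beta binding protein, which fastens the complex to fibrillin and fibronectin fibers, and integrins and proteases later set the ligand free. Active ligand binds TGFBR2, which phosphorylates TGFBR1, and TGFBR1 phosphorylates SMAD2 and SMAD3. TGFBR3 (betaglycan) is a co-receptor that presents ligand, TGF-beta2 above all. In growth plate cartilage the pathway is known for holding back the step to hypertrophy, and the cartilage matrix stores latent ligand.

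The stretches before the transcription start of 4 of these genes are shown because their RNA carried the clearest differences between groups (*Tgfb1*, *Ltbp4* and *Ltbp1*) or, for *Tgfb2*, none that passed the criteria. RefSeq windows (GRCm38.p6, the mm10 assembly) were at hand for 8 of the 10 genes, all but *Tgfb3* and *Tgfbr3*, and the 250 bases before the start were searched on both strands. The letters searched were GGGCGG for the GC box, TATAAA for the TATA box, TGACGTCA for the cyclic AMP response element (CRE), TGTGGT for Runx and CTTTGAT for TCF/LEF, and the AP-1 motif was searched as well. Capitals mark the matches, which are written as they read on the strand of the gene.
Tgfb1, chr7:25686752-25687001, plus strand: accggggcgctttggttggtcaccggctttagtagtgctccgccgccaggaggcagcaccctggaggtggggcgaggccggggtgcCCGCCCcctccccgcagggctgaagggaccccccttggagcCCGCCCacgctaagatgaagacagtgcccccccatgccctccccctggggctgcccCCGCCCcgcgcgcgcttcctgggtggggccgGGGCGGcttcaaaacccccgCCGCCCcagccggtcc
Tgfb2, chr1:186705990-186706239, minus strand: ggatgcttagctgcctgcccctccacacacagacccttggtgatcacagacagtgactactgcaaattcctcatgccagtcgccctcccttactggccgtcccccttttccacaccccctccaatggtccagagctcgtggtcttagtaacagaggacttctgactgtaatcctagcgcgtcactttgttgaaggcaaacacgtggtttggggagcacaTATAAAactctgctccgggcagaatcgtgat
Ltbp1, chr17:75005279-75005528, plus strand: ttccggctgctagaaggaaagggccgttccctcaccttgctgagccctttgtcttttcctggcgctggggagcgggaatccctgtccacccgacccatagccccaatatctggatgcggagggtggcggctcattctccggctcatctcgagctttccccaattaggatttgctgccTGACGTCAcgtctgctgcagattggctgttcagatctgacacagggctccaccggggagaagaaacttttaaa
Ltbp4, chr7:27337613-27337862, minus strand: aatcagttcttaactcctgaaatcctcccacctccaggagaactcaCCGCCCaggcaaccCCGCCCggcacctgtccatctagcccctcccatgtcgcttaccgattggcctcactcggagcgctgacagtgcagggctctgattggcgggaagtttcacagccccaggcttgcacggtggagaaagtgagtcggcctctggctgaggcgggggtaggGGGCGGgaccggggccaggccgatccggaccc
The *Tgfb1* window was 75.2% G or C and held 5 GC boxes, while the *Tgfb2* window was 53.6% G or C and held a single match, a TATA box 31 bases before the start. The *Ltbp1* window (56.8% G or C) held a CRE 73 bases before the start, and the *Ltbp4* window (64.4%) held 3 GC boxes. No match overlapped another in these windows, which belong to the start given in the expression table or lie within 3 bases of it. RefSeq lists other starts for some of these genes. Another *Ltbp1* window, 173252 bases downstream, held 2 Runx matches and no CRE, and 2 other *Ltbp4* windows (79.2% G or C) held 5 and 7 GC boxes, some of them overlapping. These *Ltbp4* windows share most of their bases, and the 5 GC boxes are the same sites as 5 of the 7. Of all 32851 mouse promoter windows of this length, 32.7% held a GC box, 14.0% a Runx match, 12.4% a TATA box and 1.55% a CRE. A match is a description of the letters and was not set against binding data.

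In WT, the compartments differed in the amount of *Tgfb1* RNA and of latency protein RNA. WT proliferative chondrocytes had more *Tgfb1* and less *Ltbp1*, *Ltbp3* and *Ltbp4* RNA than WT resting chondrocytes, and the WT hypertrophic group had the highest mean *Tgfb1* and the lowest *Ltbp4* level, though its replicate 1 lay within the WT proliferative range for *Tgfb1*. By the criteria of the study for WT compartments (unadjusted *P* ≤ 0.05, FC ≥ 2, hereafter called), 4 of the 10 genes were called when WT proliferative was set against WT resting (*Tgfb1* up, the other 3 down), where 5.53% of all genes tested were called. *Tgfb1* enters this count through the filter described above, and with a filter on the compared libraries 3 genes were called, all lower. Between WT hypertrophic and WT proliferative 1 of 10 was called, against 9.67% of all genes. With 1 library left out, these were 0 to 6 of 10 and 5.56 to 17.9% of all genes, the highest of both without WT hypertrophic replicate 1. Between WT hypertrophic and WT resting 2 of 10 were called, against 13% of all genes. The last 2 also had an adjusted P under 0.05 in limma, as did 6.36% of all genes. But with 1 library left out this was 0 to 3 of the 10 and 1.15 to 23.9% of all genes. Without the filter it was 0 of the 10 and 1.32% of all genes. With all libraries, none of the 10 passed in the other comparisons of WT compartments. For WT proliferative against resting, 5 of the 10 had an unadjusted P under 0.05 in limma, where 17.1% of all genes had that and 0.622% passed after adjustment. For WT hypertrophic against proliferative it was 3 of the 10, where 19.3% of all genes had an unadjusted P that low and 0% passed after adjustment. The median log2 fold change of the 10 genes in these comparisons was -0.40, 0.36 and -0.27, and that of all genes tested was -0.06, 0.04 and -0.02. The comparisons share libraries and are not independent of each other. With all 12 libraries in limma's moderated F test over the 4 groups, 4 genes had an adjusted P under 0.05 (*Ltbp4*, 0.00256; *Tgfb1*, 0.00720; *Ltbp1*, 0.0178; *Tgfbr3*, 0.0490), where 13.8% of all genes did. That of *Tgfb1*, which passed the filter through its high groups, is a description, and without the filter it was 0.0273 in limma. Over the alternatives in processing the adjusted P of *Tgfbr3* ran from 0.0426 to 0.140 and that of *Ltbp1* from 0.00868 to 0.0577. Of 18 alternatives, which include leaving out each library, *Tgfbr3* stayed under 0.05 in only 3 and *Ltbp1* in 15.

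**Figure D2:**
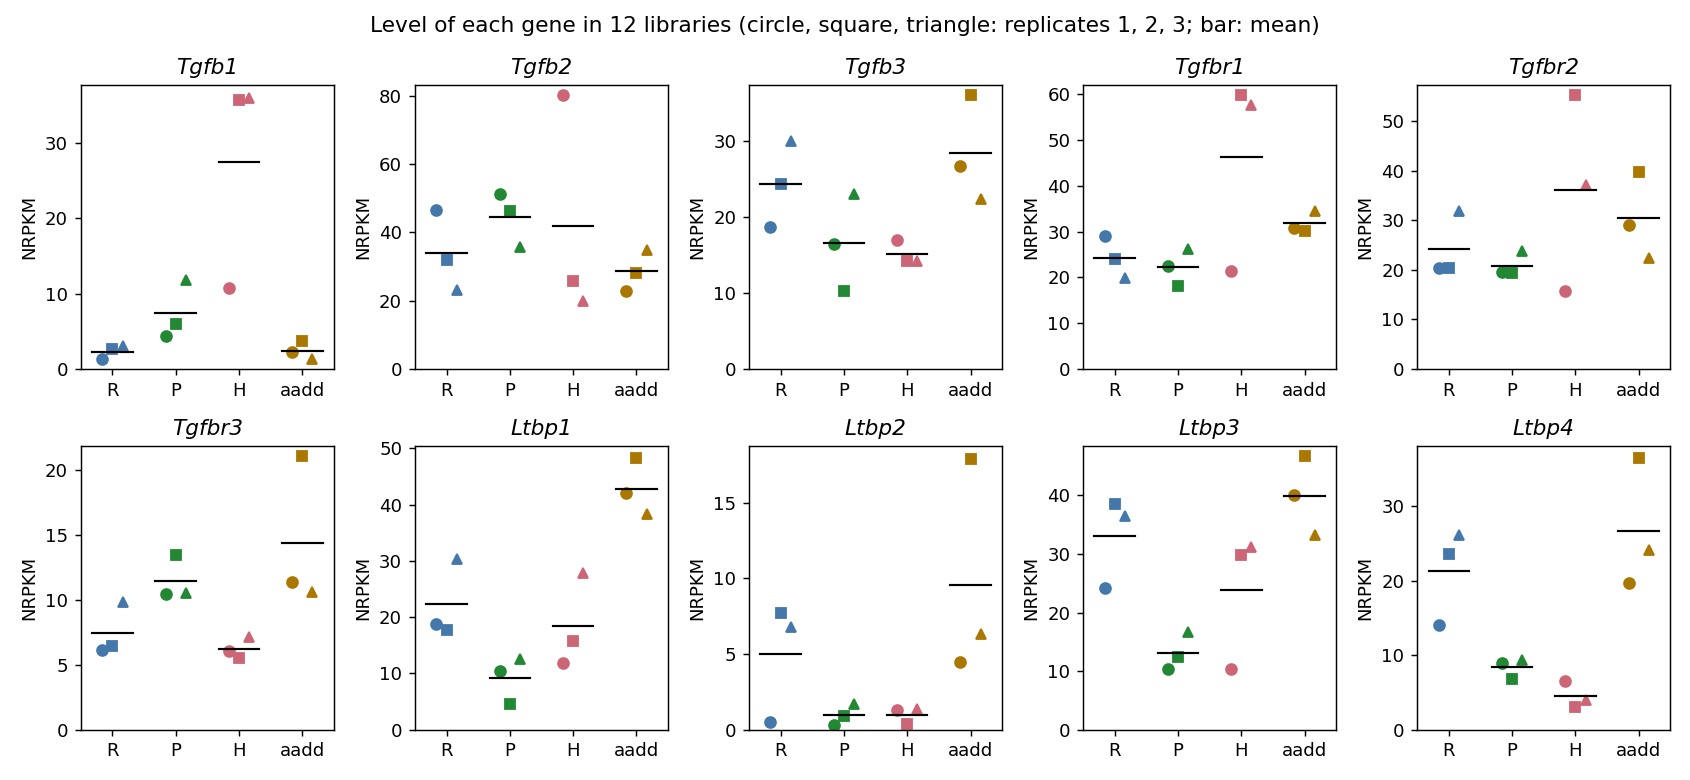
Level of each of the 10 genes (NRPKM) in the 12 libraries, with R, P and H for the WT compartments, a symbol for each replicate and a bar for the group mean. Tgfb1 rises from R to H, Ltbp4 falls from R to H, and the 3 aadd libraries are above all 9 WT libraries for Ltbp1.

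*Tgfb1* encodes the ligand that is most abundant in bone matrix. It was read at 1.34, 2.59 and 3.01 NRPKM in WT resting replicates 1, 2 and 3, at 4.38, 5.99 and 11.9 in WT proliferative, and at 10.7, 35.7 and 36.0 in WT hypertrophic. Every WT proliferative library was above every WT resting library, and the lowest WT hypertrophic library, replicate 1, lay within the WT proliferative range. Between WT proliferative and WT resting, 24% of all genes had no overlap. The rise from WT resting to WT proliferative was 1.59 ± 0.44 (SE) on the log2 scale, a 3.0-fold change (limma adjusted *P* = 0.186), given as a description because of the filter. Without a filter the value was the same (limma adjusted *P* = 0.337). From WT resting to WT hypertrophic the rise was 3.39 ± 0.55 or 10.5-fold (limma adjusted *P* = 0.0246), and from WT proliferative to WT hypertrophic it was 1.81 ± 0.59 or 3.50-fold (limma adjusted *P* = 0.203). Without the filter these adjusted P values were 0.0869 and 0.366 in limma, so the former was no longer under 0.05. WT hypertrophic replicates 2 and 3, which had the high *Tgfb1* levels, are the libraries with the high osteoclast, macrophage and endothelial sums. With replicate 1 as the only WT hypertrophic library, whose spread is then taken to be that of the other group, *Tgfb1* was still higher than in WT resting (2.24, limma adjusted *P* = 0.131) and no longer called against WT proliferative (0.65, limma adjusted *P* = 0.928). The call between WT hypertrophic and WT proliferative was also lost without WT proliferative replicate 1 or 2 (1.5 and 1.72) and without WT hypertrophic replicate 2 or 3 (1.52 and 1.51). About 19 reads lay behind the lowest *Tgfb1* value, and 580 behind the highest.

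*Tgfb2* encodes the ligand that needs betaglycan most, and it was the ligand gene read most in all 3 WT compartments by mean level. The values were 46.5, 32 and 23.0 NRPKM in WT resting, 51.3, 46.4 and 35.7 in WT proliferative, and 80.2, 25.8 and 20.0 in WT hypertrophic. The WT groups all overlapped each other, and the highest and the lowest of the 12 libraries were both WT hypertrophic, replicates 1 and 3. No comparison was called: the differences were 0.44 (95% interval -0.27 to 1.14) for WT proliferative minus resting, -0.35 (-1.63 to 0.94) for WT hypertrophic minus proliferative and 0.09 (-1.26 to 1.44) for WT hypertrophic minus resting. The direction in the WT hypertrophic group differed between its libraries. Replicate 1 alone gave 0.87 against WT proliferative and 1.30 against WT resting (limma adjusted *P* = 0.233, called), and without it the values were -0.95 (limma adjusted *P* = 0.0513) and -0.52 (limma adjusted *P* = 0.295).

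*Tgfb3* encodes the third isoform, which in the limb is known from perichondrium. It was at 18.7, 24.4 and 30.0 NRPKM in WT resting, at 16.4, 10.2 and 23.0 in WT proliferative, and at 17.0, 14.2 and 14.2 in WT hypertrophic. The highest WT hypertrophic library was below the lowest WT resting library, and the WT proliferative libraries overlapped both. Between WT hypertrophic and WT resting, 32% of all genes had no overlap. The WT hypertrophic minus resting difference was -0.67 ± 0.22, or 1.59-fold (limma adjusted *P* = 0.125), which is below the fold criterion. Against WT resting, WT proliferative gave -0.61 (limma adjusted *P* = 0.404). The row of *Tgfb3* overlaps *Ttll5* (chr12:86056743-86079041), and whether strand was used in counting is not given in the sources used here.

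As shares of the summed level of the 3 ligand genes, *Tgfb2* had 55.1% ± 14.4 (SD, 3 libraries) in WT resting, 65.3% ± 12.8 in WT proliferative and 45.6% ± 25.0 in WT hypertrophic. *Tgfb1* had 3.93% ± 1.72, 10.8% ± 5.49 and 36.2% ± 22.8 in the same order, and *Tgfb3* had 41.0% ± 12.7, 23.9% ± 8.15 and 18.2% ± 2.27. In WT hypertrophic the *Tgfb1* share was 9.93% in replicate 1 and 47.2% and 51.4% in replicates 2 and 3. In the latter pair *Tgfb1* was the ligand gene with the largest share, and in no other library was it. The summed level moved less than the shares, at 60.6 ± 5.43, 68.4 ± 5.10 and 84.6 ± 20.4 NRPKM in WT resting, proliferative and hypertrophic. These shares are given as a description and were not tested.

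**Figure D3:**
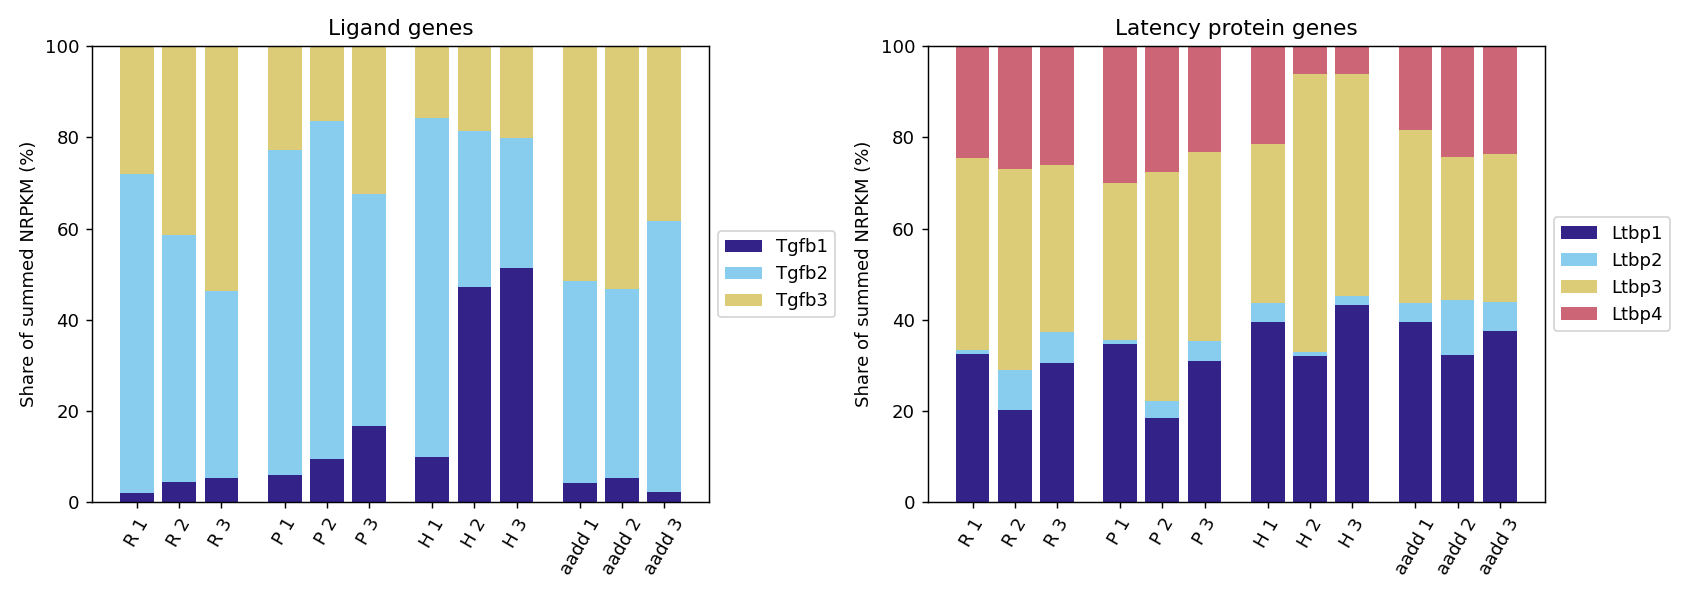
Share (%) of each ligand gene in the summed NRPKM of Tgfb1, Tgfb2 and Tgfb3, and of each latency protein gene in the summed NRPKM of the 4 Ltbp genes, in each library. Tgfb1 takes 47.2% and 51.4% in WT hypertrophic replicates 2 and 3, where Ltbp4 takes 6.14% and 6.25%.

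Among the receptors, no gene was called between WT compartments, and only *Tgfbr3* had WT groups that did not overlap. *Tgfbr1* encodes the type I receptor kinase. It stood at 29.0, 24.0 and 20.0 NRPKM in WT resting, at 22.5, 18.1 and 26.2 in WT proliferative, and at 21.5, 59.99 and 57.6 in WT hypertrophic. WT hypertrophic replicates 2 and 3 were above all other libraries, and replicate 1 was not. The WT hypertrophic difference was 0.93 ± 0.43 against WT proliferative (limma adjusted *P* = 0.293) and 0.80 ± 0.43 against WT resting (limma adjusted *P* = 0.285). Replicate 1 alone gave -0.03 and -0.16. Without it, the values were 1.41 (limma adjusted *P* = 0.0166) and 1.29 (limma adjusted *P* = 0.0115).

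*Tgfbr2* encodes the type II receptor kinase that first binds the ligand. Its levels were 20.4, 20.4 and 31.9 NRPKM in WT resting, 19.5, 19.4 and 23.7 in WT proliferative, and 15.8, 55.4 and 37.2 in WT hypertrophic. The WT hypertrophic group held both the lowest and the highest of the 12 libraries. The differences were 0.62 ± 0.46 against WT proliferative (limma adjusted *P* = 0.471) and 0.43 ± 0.48 against WT resting (limma adjusted *P* = 0.599), and replicate 1 alone gave -0.39 and -0.58. WT hypertrophic replicates 2 and 3, high in both kinase receptors, are those with 304 and 212 NRPKM of endothelial and 1351 and 995 NRPKM of osteoclast markers. Without WT hypertrophic replicate 1, *Tgfbr2* was called against WT proliferative (1.12, limma adjusted *P* = 0.0357). The part of such cells in the receptor levels was not tested.

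*Tgfbr3*, the co-receptor gene, had its WT maximum in the proliferative compartment. It was at 6.13, 6.43 and 9.79 NRPKM in WT resting, at 10.4, 13.4 and 10.5 in WT proliferative, and at 6.03, 5.51 and 7.13 in WT hypertrophic. The WT proliferative libraries were above all WT resting and all WT hypertrophic libraries. Both differences fell short of a 2-fold change: WT proliferative minus resting was 0.64 ± 0.24 or 1.56-fold (limma adjusted *P* = 0.260), and WT hypertrophic minus proliferative was -0.87 ± 0.20 or 1.83-fold (limma adjusted *P* = 0.148). WT hypertrophic replicate 1 by itself gave nearly the value of all 3 libraries, -0.91 (limma adjusted *P* = 0.761). Groups that did not overlap were found for 24% of all genes between WT proliferative and WT resting and for 24.2% between WT hypertrophic and WT proliferative.

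The latency protein genes were lower in WT proliferative than in WT resting for 3 of the 4, and the fourth had a wide spread. The summed tendon markers were at 199, 472 and 498 NRPKM in WT resting and 146, 145 and 307 in WT proliferative. That sum was lower in each same-numbered pair, as were 3 of its 10 genes (*Fmod*, *Col14a1* and *Tnc*). *Thbs2* of that list was mixed, at 12.7, 39.3 and 19.3 NRPKM against 34.1, 18.8 and 61.9. *Fmod* adds most to the sum in WT resting replicates 2 and 3 (241 and 305 NRPKM). It is itself on the list of matrix anchors and activators below. The perichondrial sum, to which *Col1a1*, *Col1a2* and *Lum* add most, was at 486, 863 and 744 NRPKM against 603, 702 and 1371. Of its 10 genes, 2 were lower in each pair, *Dcn* and *Pdgfra*, the latter at 30.6, 37.5 and 34.1 NRPKM against 23.4, 14.3 and 25.0. *Lum* was higher in each pair, at 134, 102 and 144 NRPKM against 161, 271 and 274, and the other genes were mixed. The share of all genes lower in each pair was not determined. The part of such cells in the Ltbp levels was not tested. *Ltbp1*, which encodes a binding protein for all 3 latent ligands, was at 18.8, 17.7 and 30.4 NRPKM in WT resting, at 10.3, 4.58 and 12.5 in WT proliferative, and at 11.8, 15.8 and 27.8 in WT hypertrophic. No WT proliferative library reached the lowest WT resting library, in a comparison where 24% of all genes had no overlap. *Ltbp1* fell by 1.35 ± 0.42 on the log2 scale, a 2.55-fold change (limma adjusted *P* = 0.210). The call was lost without WT resting replicate 3 (-1.11, limma adjusted *P* = 0.456) and without WT proliferative replicate 2 (-0.92, limma adjusted *P* = 0.309). WT hypertrophic was between these groups and overlapped both, with 1.03 ± 0.48 against WT proliferative (limma adjusted *P* = 0.293) and -0.32 ± 0.38 against WT resting (limma adjusted *P* = 0.624). Without WT hypertrophic replicate 1 the former was called (1.31, limma adjusted *P* = 0.139).

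*Ltbp3* encodes a binding protein that is needed for skeletal growth in mice. Its levels were 24.1, 38.6 and 36.5 NRPKM in WT resting, 10.3, 12.4 and 16.7 in WT proliferative, and 10.4, 29.9 and 31.2 in WT hypertrophic. All WT proliferative libraries were below all WT resting libraries, in a comparison where 24% of all genes had no overlap. *Ltbp3* fell by 1.33 ± 0.27 or 2.51-fold (limma adjusted *P* = 0.104). WT hypertrophic replicate 1 was at the WT proliferative level and replicates 2 and 3 were within the WT resting range. Neither WT hypertrophic comparison was called with all libraries (0.73 against WT proliferative, limma adjusted *P* = 0.412, and -0.60 against WT resting, limma adjusted *P* = 0.448). With replicate 1 alone the fall against WT resting was called (-1.63, limma adjusted *P* = 0.127), and without that library the rise against WT proliferative was (1.24, limma adjusted *P* = 0.0305). Replicates 2 and 3 are again the libraries with the high osteoclast, macrophage and endothelial sums, whose part in the *Ltbp3* level was not tested.

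*Ltbp4* encodes a binding protein that takes up mainly latent TGF-beta1 and also takes part in elastic fiber assembly. It was read at 14.1, 23.6 and 26.1 NRPKM in WT resting, at 8.93, 6.79 and 9.32 in WT proliferative, and at 6.48, 3.01 and 4.02 in WT hypertrophic. The 3 WT compartments did not overlap at all, in the order resting, proliferative, hypertrophic, and 32% of all genes had no overlap between the first and the last of these. It fell by 1.30 ± 0.28 or 2.47-fold from WT resting to WT proliferative (limma adjusted *P* = 0.114) and by 2.24 ± 0.36 or 4.71-fold from WT resting to WT hypertrophic (limma adjusted *P* = 0.0241). The step from WT proliferative to WT hypertrophic was -0.93 ± 0.31, or 1.91-fold (limma adjusted *P* = 0.210), just short of the fold criterion. It passed without WT proliferative replicate 2 (-1.07) and without WT hypertrophic replicate 1 (-1.23). The lowest libraries, WT hypertrophic replicates 2 and 3, are those with chondrocyte sums of 654 and 932 NRPKM and high osteoclast, macrophage and endothelial sums, and the part of cell content in *Ltbp4* was not tested. With WT hypertrophic replicate 1 alone, the values were -1.65 against WT resting (limma adjusted *P* = 0.156, called) and -0.35 against WT proliferative (limma adjusted *P* = 0.925).

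*Ltbp2* encodes a fibrillin-associated protein that, unlike the others, is not known to bind latent TGF-beta. It had the lowest level of the 4, at 0.499, 7.69 and 6.77 NRPKM in WT resting, 0.291, 0.922 and 1.72 in WT proliferative, and 1.31, 0.347 and 1.34 in WT hypertrophic. WT resting replicate 1 lay with the lower groups and the other WT resting libraries were above them. The WT proliferative minus resting difference was -1.82 ± 1.08 (limma adjusted *P* = 0.431), and it met the criteria once the replicate number was a block (limma adjusted *P* = 0.178). These are descriptions, since no WT proliferative library reached the filter level and *Ltbp2* has no value with a filter on the compared libraries. Without WT resting replicate 1 it was -3.02 (limma adjusted *P* = 0.135), and the WT hypertrophic minus resting difference went from -1.71 (limma adjusted *P* = 0.351) to -2.92 (limma adjusted *P* = 0.0675). About 6.2 reads stood behind the lowest value, and the row overlaps *D030025P21Rik* (chr12:84783212-84876495). WT resting replicate 1 also had the lowest *Tgfb1*, *Ltbp3* and *Ltbp4* levels of its group, with 486 NRPKM of perichondrial markers against 863 and 744 in the other WT resting libraries, and the part of perichondrium in these levels was not tested.

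The summed level of the 4 Ltbp genes was 57.5, 87.6 and 99.7 NRPKM in WT resting, 29.9, 24.7 and 40.2 in WT proliferative, and 30.0, 49.0 and 64.4 in WT hypertrophic. The shares within this sum were close in WT resting and WT proliferative for 3 genes, with 40.9% and 42.0% for *Ltbp3*, 27.8% and 28.1% for *Ltbp1* and 25.9% and 26.9% for *Ltbp4*, while *Ltbp2* had 5.48% ± 4.11 (SD, 3 libraries) and 3.0% ± 1.77. The *Ltbp4* share in WT hypertrophic was 21.6% in replicate 1 and 6.14% and 6.25% in replicates 2 and 3.

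**Figure D4:**
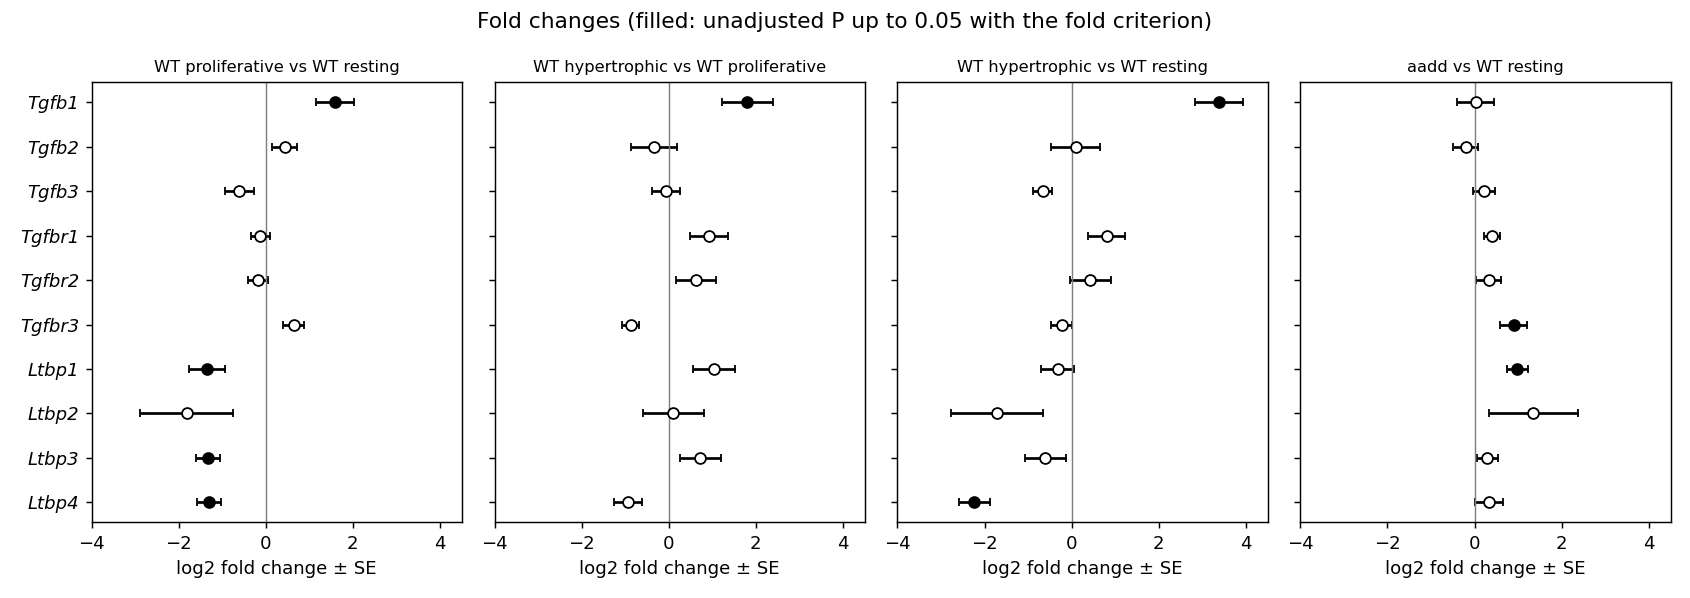
Log2 fold change ± SE of the 10 genes in the 4 pairwise comparisons, with filled points for unadjusted P ≤ 0.05 and FC ≥ 2 (FC ≥ 1.5 for aadd). Ltbp1, Ltbp3 and Ltbp4 are lower in WT proliferative than in WT resting, and Tgfbr3 and Ltbp1 are higher in aadd than in WT resting. Tgfb1 is higher by mean in WT hypertrophic than in both other compartments, but its replicate 1 lies within the WT proliferative range.

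In *aadd* the chondrocytes had more *Ltbp1* and *Tgfbr3* RNA than WT resting chondrocytes, and no ligand gene differed by the criteria used (unadjusted *P* ≤ 0.05, FC ≥ 1.5). This comparison sets the undifferentiated cells of the whole mutant element beside the WT resting compartment. Genotype and the region captured differ together between these groups, so their parts in a difference cannot be told apart. Of the 10 genes 2 were called, both higher, where 6.56% of all genes were called in either direction and 3.78% were called higher. None had an adjusted P under 0.05 in limma, as was the case for all but 0.119% of genes, while 9.58% of all genes had an unadjusted P that low. The median log2 fold change of the 10 genes was 0.33, and that of all genes was 0.01. The 3 WT resting libraries are the same ones that served the comparisons of WT compartments.

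*Ltbp1* was at 42.0, 48.3 and 38.3 NRPKM in *aadd* replicates 1, 2 and 3, against 18.8, 17.7 and 30.4 in WT resting. Each *aadd* library was above each of the 9 WT libraries, the highest of which was at 30.4 NRPKM, a position shared by 2.82% of all genes tested. The difference was 0.98 ± 0.24 or 1.97-fold (limma adjusted *P* = 0.275). It was called with each library left out in turn, between 0.84 and 1.22, and without *aadd* replicate 2, its highest library, it was 0.89. Hypertrophic markers summed to 49.1 to 82.1 NRPKM in *aadd*, while WT resting libraries had 74.7 to 112 and WT proliferative ones 729 to 1017. Of the 10 perichondrial markers *Pdgfra* (56.5, 54.1 and 46.3 NRPKM in *aadd*) was above WT resting in every *aadd* library, as *Ltbp1* was. Of the 10 tendon markers *Mkx* was too (27.9, 25.5 and 33.6, against 17.4, 14.7 and 12.1 in WT resting). So were 3 of the 10 skeletal muscle markers, *Actc1*, *Myh3* and *Myh8*, of which only *Actc1* passed the filter. *Myh8* was at 0.27, 0.45 and 0.39 NRPKM in *aadd*. *Myh3* was at 0.51 NRPKM in *aadd* replicate 3, against up to 0.50 in WT resting. The muscle list summed to 32.6, 45.3 and 14.6 NRPKM in *aadd* and to 6.90, 5.76 and 8.99 in WT resting. The osteoblast, macrophage and erythroid lists had 2, 1 and 1 such genes, and the chondrocyte, hypertrophic, endothelial and osteoclast lists had 0. Over all genes tested, 8.08% lay above WT resting in every *aadd* library. Other markers were below WT resting in every *aadd* library. These were perichondrial *Twist2* (0, 0.69 and 0 NRPKM against 8.77, 7.20 and 0.89), hypertrophic *Panx3* and *Pth1r*, and osteoclast *Acp5* and *Itgb3*. The part of the cells of these lists in the *Ltbp1* level was not tested. The *Ltbp1* row overlaps *Gm6276* (chr17:75005529-75392967).

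*Tgfbr3* was at 11.3, 21.1 and 10.6 NRPKM in *aadd* and at 6.13, 6.43 and 9.79 in WT resting. The *aadd* libraries were all above WT resting and overlapped the WT proliferative libraries at 10.4 to 13.4. The difference was 0.89 ± 0.32 or 1.86-fold (limma adjusted *P* = 0.437). The highest library was *aadd* replicate 2, which had 37.3 NRPKM of endothelial markers against 10.0 and 5.15 in the other *aadd* libraries, and without it the difference was 0.58 and not called. Leaving out WT resting replicate 1 or 2 also ended the call, at 0.77 and 0.81, as did dropping the filter on low values.

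The ligand genes of *aadd* lay within the range of the WT resting group or near it. *Tgfb1* was at 2.23, 3.69 and 1.33 NRPKM, *Tgfb2* at 22.9, 28.1 and 34.8, and *Tgfb3* at 26.7, 36.1 and 22.4. The intervals of the log2 difference from WT resting were -0.98 to 1.03 for *Tgfb1*, -0.90 to 0.49 for *Tgfb2* and -0.39 to 0.82 for *Tgfb3*, each of which contains a 1.5-fold change in at least 1 direction. In shares of the ligand sum, *Tgfb3* with 47.7% ± 8.19 (SD, 3 libraries) and *Tgfb2* with 48.3% ± 9.74 were about level in *aadd*, and *Tgfb1* had 4.01% ± 1.60.

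Of the kinase receptors, *Tgfbr1* was at 30.8, 30.1 and 34.6 NRPKM in *aadd*, above each WT resting library (20.0 to 29.0), with a difference of 0.40 (95% interval -0.05 to 0.85, limma adjusted *P* = 0.579). Groups that did not overlap, higher in *aadd*, were found for 8.08% of all genes. *Tgfbr2* was at 29.1, 39.7 and 22.5 NRPKM and overlapped WT resting (0.32, interval -0.34 to 0.99).

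The other latency protein genes overlapped between *aadd* and WT resting. *Ltbp3* was at 40.1, 46.7 and 33.2 NRPKM (0.29, interval -0.28 to 0.86), and *Ltbp4* was at 19.6, 36.4 and 24.1 (0.33, -0.43 to 1.08). *Ltbp2* was at 4.49, 17.9 and 6.34 NRPKM, with an interval of -1.09 to 3.79 that spans a fall and a large rise. *Ltbp1*, *Ltbp2*, *Ltbp3*, *Ltbp4*, *Tgfb3* and *Tgfbr3* all had their highest level of the 12 libraries in *aadd* replicate 2, where tendon markers summed to 653 NRPKM against 380 and 349 and perichondrial markers summed to 1131 NRPKM against 504 and 565 in replicates 1 and 3. The part of perichondrium or tendon in that library's levels was not tested. The summed Ltbp level was 106, 149 and 102 NRPKM in *aadd*, each above the highest WT library at 99.7.

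Over all 4 groups, the order of mean levels was WT resting, *aadd*, WT proliferative and WT hypertrophic for *Tgfb1*, where WT resting and *aadd* did not differ beyond their spread (2.31 ± 0.87 and 2.42 ± 1.19 NRPKM). For *Ltbp4* it was *aadd*, WT resting, WT proliferative and WT hypertrophic, with *aadd* and WT resting again inseparable (26.7 ± 8.71 and 21.3 ± 6.31). *Ltbp1* ran from *aadd* (42.9 ± 5.06) through WT resting (22.3 ± 7.04) and WT hypertrophic (18.5 ± 8.33) to WT proliferative (9.14 ± 4.09 NRPKM), where WT hypertrophic overlapped both of its neighbors. *Ltbp3* followed the same order (40.0 ± 6.73, 33.1 ± 7.81, 23.8 ± 11.6 and 13.1 ± 3.25), with each neighboring pair of groups overlapping. *Tgfbr3* ran from *aadd* (14.3 ± 5.85) through WT proliferative (11.5 ± 1.70) and WT resting (7.45 ± 2.03) to WT hypertrophic (6.22 ± 0.83). The differences of *aadd* from WT proliferative and WT hypertrophic were not tested.

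The 10 genes did not share 1 pattern over the 12 libraries. On the log2(NRPKM + 0.1) scale, the highest Pearson correlations among them were 0.85 for *Tgfb3* with *Ltbp4*, 0.84 for *Ltbp1* with *Ltbp3* and 0.81 for *Ltbp2* with *Ltbp4*, and *Tgfbr1* with *Tgfbr2* had 0.73. The lowest were -0.84 for *Tgfb1* with *Ltbp4*, -0.82 for *Tgfb2* with *Ltbp3* and -0.80 for *Tgfb2* with *Tgfbr2*. These describe libraries that share group, marker content and depth. Among 10926 other genes, the closest to *Tgfb1* were *Fam102a*, *Gucy1a3* and *Tnfaip2* (r of 0.97 for each), of which *Gucy1a3* averaged 0.531, 3.36 and 26.7 NRPKM in WT resting, proliferative and hypertrophic and 0.380 in *aadd*. The closest to *Tgfb2* were *Sap130* (0.97), *Fbxl14* (0.94) and *Dyrk1a* (0.92). The closest to *Tgfb3* were *Thra* (0.94), the gene of a thyroid hormone receptor at 24.1, 11.6, 9.41 and 21.5 NRPKM in the same order of groups, *Smarca2* (0.93) and *Pkd1* (0.92).

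Beyond the 10 genes, 5 lists of the wider pathway were read in the same fits. Of 7 signal transducer genes, all tested, *Smad3* alone was called: this receptor-activated SMAD gene fell from 20.8 ± 4.21 NRPKM in WT resting to 9.89 ± 2.95 in WT proliferative (log2 -1.09, limma adjusted *P* = 0.149), with libraries that did not overlap. That is 1 of 7 genes in a comparison where 5.53% of all genes were called and 24% had no overlap. Without WT resting replicate 3 or WT proliferative replicate 2 it was -0.95 and -0.89, below the fold criterion. In WT hypertrophic *Smad3* averaged 19.1 ± 5.90 NRPKM, and the difference from WT proliferative, 0.93, was short of the fold criterion. Its WT hypertrophic replicates 1, 2 and 3 were at 12.7, 20.1 and 24.4 NRPKM, of which replicate 1 lay within the WT proliferative range (7.30 to 13.1). Replicates 2 and 3 are the libraries with the high osteoclast, macrophage and endothelial sums, whose part was not tested. Of 4 tested genes for other receptors, *Eng*, the endoglin co-receptor gene best known from endothelium, fell from 16.6 to 7.79 NRPKM from WT resting to WT proliferative (limma adjusted *P* = 0.285). The *Eng* call was lost without WT resting replicate 2 or 3 (-1.10 and -0.89), without WT proliferative replicate 1 or 2 (-1.19 and -0.74), without the filter, with all 12 libraries in 1 fit and under both other scalings.

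Matrix anchors and activators formed the longest list, of which 14 of 18 were tested. *Fbn2*, the gene of fibrillin-2, to which latency proteins bind, had the same order of group means as *Ltbp4*. It was at 74.8, 68.7 and 74.5 NRPKM in WT resting, 52.9, 15.6 and 41.2 in WT proliferative, 34.0, 18.7 and 22.7 in WT hypertrophic, and 113, 130 and 101 in *aadd*. The *Fbn2* libraries of *aadd* were above all 9 WT libraries. It was called lower in WT proliferative (-1.16, limma adjusted *P* = 0.270) and WT hypertrophic (-1.57, limma adjusted *P* = 0.0230) and higher in *aadd* (0.65, limma adjusted *P* = 0.278), each against WT resting. The WT proliferative call of *Fbn2* was lost without any 1 of the WT resting libraries (-1.14 to -1.2) or without WT proliferative replicate 2 (-0.64), and without the filter. The *aadd* call was lost without *aadd* replicate 2 (0.56) and with all 12 libraries in 1 fit. Between WT hypertrophic and WT resting 4 of the 14 were called higher and 4 lower, where 13% of all genes were called. *Itgav*, the gene of the integrin alpha v subunit that binds latent ligand, was at 18.8, 76.5 and 68.2 NRPKM in WT hypertrophic against 15.2, 13.8 and 20.1 in WT resting (1.51, limma adjusted *P* = 0.149). The call was lost without WT resting replicate 1 or 2 (1.47 and 1.40), without WT hypertrophic replicate 2 or 3 (1.14 and 1.23), without the filter, and with replicate 1 alone (0.22, limma adjusted *P* = 0.744). *Nrros*, the gene of a latency protein known from macrophages and microglia, was at 5.0, 12.9 and 9.60 NRPKM in WT hypertrophic replicates 1, 2 and 3 and at 1.80, 3.21 and 2.60 in WT resting (1.75, limma adjusted *P* = 0.0544). It met the filter through the 3 WT hypertrophic libraries alone, the group where it is high, with a highest level elsewhere of 4.64 NRPKM, so its calls are a description. *Itgav* and *Nrros* were both highest in WT hypertrophic replicate 2, then replicate 3, in the order of the osteoclast (51.5, 1351 and 995), macrophage (23.8, 285 and 230) and endothelial sums, and the part of such cells was not tested. *Fmod*, the fibromodulin gene, was at 29.2 against 204 NRPKM (-2.79, limma adjusted *P* = 0.0888), and at 9.40, 43.8 and 34.5 NRPKM in WT hypertrophic replicates 1, 2 and 3. In WT proliferative it was at 26.8, 61.7 and 131 NRPKM against 64.9, 241 and 305 in WT resting replicates 1, 2 and 3, lower in each same-numbered pair. That difference (-1.49) was not called without the replicate number as a block (limma adjusted *P* = 0.372) and was called with it (limma adjusted *P* = 0.0888). Between WT hypertrophic and WT proliferative, *Itgav* (1.35, limma adjusted *P* = 0.254) and *Nrros* (1.16, limma adjusted *P* = 0.210) were called higher, and *Thbs1*, the gene of thrombospondin 1, an activator of latent ligand, lower (-1.39, limma adjusted *P* = 0.177), where 9.67% of all genes were called. The *Itgav* call was lost without any 1 of the WT proliferative libraries (1.31 to 1.39), without WT hypertrophic replicate 2 or 3 (0.98 and 1.07), without the filter, under both other scalings and with replicate 1 alone (0.057). The *Nrros* call was lost without WT proliferative replicate 1 (0.94), and *Nrros* drops below the filter, with no value, under rescaling by the median of ratios, without any 1 of the WT hypertrophic libraries and with replicate 1 alone. The call of *Thbs1* was lost with WT hypertrophic replicate 1 alone (-0.74).

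The inhibitor list had 1 of 9 genes called in each comparison but WT proliferative against resting, where it had 0, beside 9.67% of all genes for WT hypertrophic against proliferative, 13% for WT hypertrophic against resting and 6.56% for *aadd* against WT resting. Of these inhibitor genes, *Smurf1*, a ubiquitin ligase gene, was called higher in WT hypertrophic than in WT proliferative (12 against 5.58 NRPKM, 1.09, limma adjusted *P* = 0.146), a call lost without WT proliferative replicate 2 (0.92) or WT hypertrophic replicate 3 (0.98), with quantile normalization (0.96), a pseudocount of 1 (0.98) and replicate 1 alone (0.79). *Bambi*, which encodes a decoy receptor, was called higher in WT hypertrophic than in WT resting (18.8 against 6.96 NRPKM, 1.5, limma adjusted *P* = 0.0758), and with WT hypertrophic replicate 1 alone it was 1.89. Of 8 tested response genes, 1 was called between WT hypertrophic and WT proliferative, 3 between WT hypertrophic and WT resting and 1 in *aadd*, beside the same shares of all genes. *Tgfbi*, a matrix protein gene named for its induction by TGF-beta, was at 135, 165 and 133 NRPKM in WT proliferative and at 54.1, 18.5 and 18.0 in WT hypertrophic. No library overlapped, in a comparison where 24.2% of all genes had no overlap. *Tgfbi* fell by 2.45 (limma adjusted *P* = 0.120), and by 1.79 against WT resting (limma adjusted *P* = 0.0704). With WT hypertrophic replicate 1 alone the values were -1.41, still called, and -0.75, not called. Replicates 2 and 3, lowest for *Tgfbi*, are the libraries with low chondrocyte and high osteoclast, macrophage and endothelial sums, whose part was not tested. *Fn1* (1.2, limma adjusted *P* = 0.0517) and *Col1a1* (1.58, limma adjusted *P* = 0.119), genes of fibronectin and type I collagen, were called higher in WT hypertrophic than in WT resting, beside summed osteoblast markers of 921, 1353 and 2051 NRPKM in the 3 WT hypertrophic libraries and 167 to 378 in WT resting. *Col1a1* is itself on that marker list, and its call was lost without WT resting replicate 1 or 3 (1.25 and 1.59), without WT hypertrophic replicate 2 or 3 (1.54 and 1.18) and with replicate 1 alone (0.67). In *aadd*, *Pmepa1*, an inhibitor that is also a response gene, was called higher than in WT resting (20.8 ± 2.82 against 13.6 ± 1.51 NRPKM, 0.61, limma adjusted *P* = 0.353), a call lost without WT resting replicate 2 (0.51) or *aadd* replicate 2 or 3 (0.53 and 0.57) and with a pseudocount of 1 (0.58). None of the 7 signal transducers or the 4 other receptors was called in *aadd*, where 6.56% of all genes were.

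**Figure D5:**
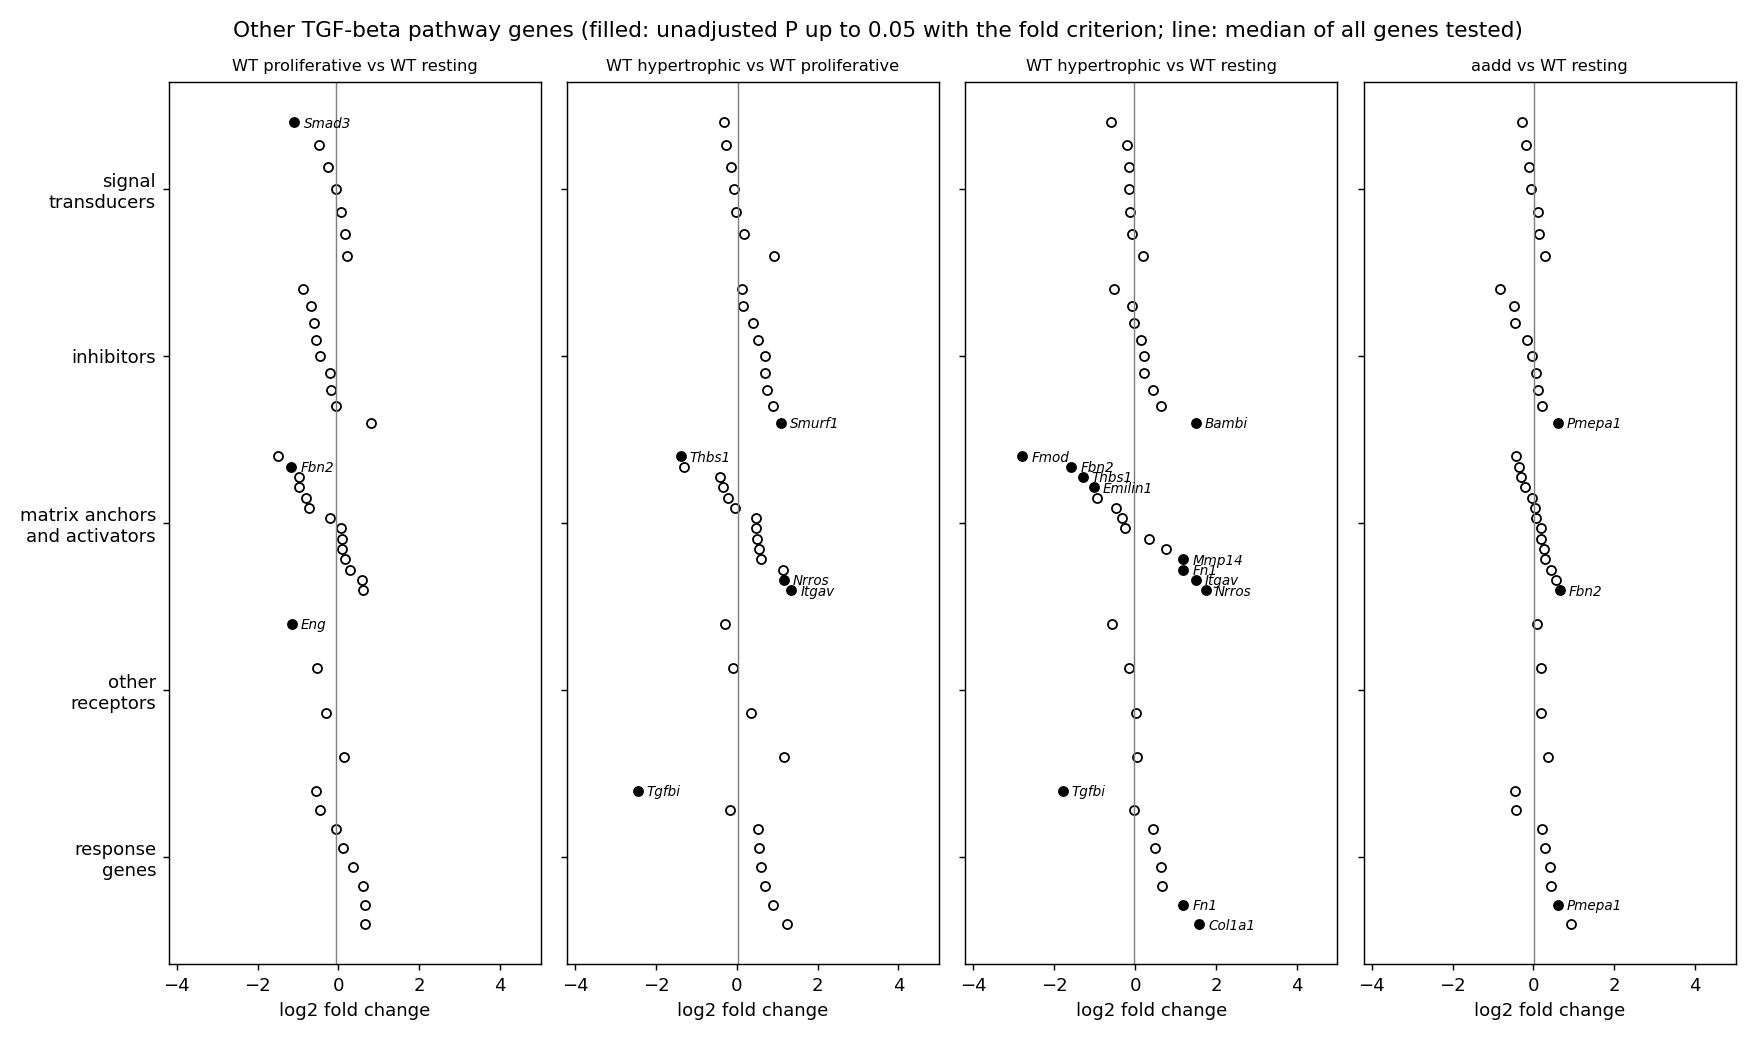
Log2 fold change of the tested genes of 5 pathway lists in the 4 comparisons, with filled and named points for genes that were called and a grey line at the median of all genes tested. WT hypertrophic against WT resting has most calls, 8 of them among the matrix anchors and activators, and aadd against WT resting has Fbn2 and Pmepa1.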

How the data were processed

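RNA was captured by LCM, amplified with the Ovation RNA-Seq System V2, tagmented with Nextera and sequenced. The authors removed reads of low quality, with several alignments or in duplicate; the submitters' processing notes name TopHat and mm10, and strand use and scaling are not given in the sources used here. The deposited values are RPKM, normalized further by the authors (NRPKM). Counts were not used, so the depth was read from the most frequent value of 1869 single-exon receptor and keratin-associated rows, taken as 1 read, and reads behind a gene from GENCODE exon lengths. Such numbers limit precision by counting error only.

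With a pseudocount of 0.1, log2(NRPKM + 0.1) was fitted in limma 3.58.1 (R 4.3.3; plots in matplotlib 3.10.9), after the filter and criteria of the study: 6 libraries per comparison, moderated statistics, no covariate, Benjamini-Hochberg adjustment over 10936 genes. Fold changes are on this scale. FC ≥ 2 was also used for WT hypertrophic against resting. The procedure was tested on simulated data. Named are all 10 genes, per pathway list and comparison up to 2 called rises and falls, and the 3 genes most like each ligand gene. The members and lists were chosen with earlier results of these data known. Same-numbered libraries of WT resting and WT proliferative deviated together (r of 0.28, 0.18 and 0.20 across genes), so for that comparison the fit with the replicate number as a block is given where it changes a call. Alternatives were 1 fit of all libraries, the block, a variance trend, quantile normalization, no filter, median-of-ratios rescaling, a pseudocount of 1, filtering on the compared libraries only and leaving out each library. Keeping only WT hypertrophic replicate 1 was chosen after seeing the data.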

Additional observations from a re-analysis of the deposited data

How the results depend on the processing

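Of the members' fold changes in the 4 pairwise comparisons, refitted under the alternatives, 527 kept direction and side of the criteria, 15 gained a call, 11 lost it and 22 changed sign. Filtering on the compared libraries removed *Tgfb1* from the test in 2 comparisons and *Ltbp2* in 3, which have no value there, and the number of the 10 genes called between WT proliferative and WT resting then went from 4 to 3. The number of the 10 genes called between WT hypertrophic and WT proliferative, 1, became 2 with quantile normalization, with all 12 libraries in 1 fit and with the replicate block, 0 with WT hypertrophic replicate 1 as its only library, and 0 to 6 with 1 library left out, while the share of all genes called there went from 9.67% to 4.23% with WT hypertrophic replicate 1 as its only library and to 5.56 to 17.9% with 1 library left out. For WT hypertrophic against WT resting it was 2, and 4 with WT hypertrophic replicate 1 alone. The number with an adjusted P under 0.05 there, 2, became 0 without the filter and with WT hypertrophic replicate 1 alone, 1 with the replicate block, and 0 to 3 with 1 library left out: 0 without WT resting replicate 2 or 3 or WT hypertrophic replicate 2 or 3, 1 without WT resting replicate 1 and 3 without WT hypertrophic replicate 1, where the share of all genes was 6.36% with all libraries and 1.15 to 23.9% with 1 left out. Between WT hypertrophic and WT proliferative it was 0, and 5 without WT hypertrophic replicate 1, where 17% of all genes also passed, against 0% with all libraries. For *aadd* against WT resting 2 became 1 without the filter and 1 to 2 with 1 library left out, and in the F test 4 became 2 without the filter and 2 to 5 with 1 library left out. Of the pathway genes, 3 were called between WT proliferative and WT resting (1 without the filter, 0 to 6 with 1 library left out), 5 between WT hypertrophic and WT proliferative (3 after rescaling, 3 with WT hypertrophic replicate 1 alone, 2 to 11 with 1 library left out), 11 between WT hypertrophic and WT resting (6 to 10 with 1 library left out) and 2 between *aadd* and WT resting (4 with the replicate block, 1 to 4 with 1 library left out).

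Signs changed only for differences that were not called. With WT hypertrophic replicate 1 alone, the values against WT proliferative were 0.87 for *Tgfb2*, 0.11 for *Tgfb3*, -0.032 for *Tgfbr1*, -0.39 for *Tgfbr2* and -0.30 for *Ltbp3*, and those against WT resting were -0.16 for *Tgfbr1* and -0.58 for *Tgfbr2*. Quantile normalization gave -0.00396 for *Tgfb2* (WT hypertrophic minus resting) and -0.037 for *Tgfb1* (*aadd* minus WT resting). With 1 library left out, ranges that crossed 0 were -0.26 to 0.012 for *Tgfbr1* and -0.30 to 0.027 for *Tgfbr2* (WT proliferative minus resting), -0.95 to 0.049 for *Tgfb2*, -0.37 to 0.21 for *Tgfb3* and -0.49 to 0.66 for *Ltbp2* (WT hypertrophic minus proliferative), -0.52 to 0.48 for *Tgfb2* (WT hypertrophic minus resting), and -0.33 to 0.37 for *Tgfb1* and -0.45 to 0.055 for *Tgfb2* (*aadd* minus WT resting). The causes were not tested.

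The replicate block called *Ltbp2* between WT proliferative and WT resting and *Ltbp1* between WT hypertrophic and WT proliferative (1.03, limma adjusted *P* = 0.303), and it moved the adjusted P of *Ltbp4* between WT hypertrophic and WT resting from 0.0241 to 0.0885 in limma. It changed no other call of a member in a pairwise comparison. Of the pathway genes it also called *Fmod* between WT proliferative and WT resting, *Fmod* (-1.30) and *Col1a1* (1.23) between WT hypertrophic and WT proliferative, and *Bambi* (-0.83) and *Postn* (0.94) between *aadd* and WT resting. In the comparisons with WT hypertrophic or *aadd* libraries the correlation of same-numbered libraries was not above 0.1 in every pair (r from -0.10 to 0.28), the level asked for to treat the numbers as pairs. As a hint from the data only, 3 of 6 libraries deviated most like their own number between WT hypertrophic and WT proliferative and between *aadd* and WT resting, and 6 of 6 between WT hypertrophic and WT resting. Depth limits *Ltbp2* and the low *Tgfb1* values, with about 6.2 and 19 reads behind the lowest.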
